A study of Rattus norvegicus with 12 samples.

Results

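The SLC25 genes encode the mitochondrial solute carriers. Of the 35966 genes deposited, 47 carry a symbol made of Slc25a and a number, which was the rule for membership, and 32 of the 47 reached at least 1 TPM, a length-scaled share of all transcripts, in at least 3 of the 12 libraries and could be tested. The cells are H9c2(2-1), a rat line from embryonic heart that grows as myoblasts and is labelled wild type. One group went without glucose for 36 h (GD). A pair of groups was deprived of glucose for the same 36 h together with empagliflozin at 100 µM or 200 µM, and control cells were kept in high-glucose DMEM with 10% FBS. Each of the 4 groups has 3 libraries of total RNA. Serum in the deprived groups and the drug's solvent are not stated in the labels. Nor are separate cultures behind the 3 libraries of each group, and the p-values below therefore reflect a spread between libraries that may be technical.

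Carriers of this family span the inner mitochondrial membrane, apart from a few that sit in peroxisomes or in the outer membrane, and most of them exchange one small molecule for another. They bring ADP, phosphate, cofactors, nucleotides, amino acids and iron to the matrix and let ATP, citrate and other intermediates out. In heart and muscle they are best known for supplying ATP to contraction and for the malate-aspartate shuttle, which carries the electrons of cytosolic NADH into mitochondria. Empagliflozin, used in diabetes and heart failure, blocks SGLT2, the transporter by which the kidney takes glucose back.

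RefSeq promoters on build GRCr8 were matched by symbol to 39 of the 47 members and to 25 of the 32 tested. The 250 bases upstream of 1 annotated start are shown for 4 genes on which the results below turn. Slc25a33 had the largest rise on deprivation, Slc25a1 and Slc25a10 the largest falls in log2(TPM + 1), and Slc25a25 had the largest fall at 100 µM of drug. The stretches are chr5:165502974-165503223 on the minus strand for Slc25a33, chr11:96559804-96560053 on the plus strand for Slc25a1, chr10:106264146-106264395 on the plus strand for Slc25a10 and chr3:36116582-36116831 on the minus strand for Slc25a25. Each is written 5′ to 3′ on the strand of its gene, and capitals mark CACGTG, TGACGTCA and CCAAT or its complement ATTGG.
Slc25a33: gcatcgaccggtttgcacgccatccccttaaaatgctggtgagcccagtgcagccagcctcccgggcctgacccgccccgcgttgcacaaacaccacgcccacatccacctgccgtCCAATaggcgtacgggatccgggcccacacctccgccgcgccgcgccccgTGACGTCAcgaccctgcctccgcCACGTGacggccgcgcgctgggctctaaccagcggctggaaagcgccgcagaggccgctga
Slc25a1: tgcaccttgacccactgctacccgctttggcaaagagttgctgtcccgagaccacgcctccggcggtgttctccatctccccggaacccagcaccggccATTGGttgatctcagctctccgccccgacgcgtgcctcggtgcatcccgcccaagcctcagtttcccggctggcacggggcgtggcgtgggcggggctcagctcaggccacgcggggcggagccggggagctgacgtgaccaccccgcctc
Slc25a10: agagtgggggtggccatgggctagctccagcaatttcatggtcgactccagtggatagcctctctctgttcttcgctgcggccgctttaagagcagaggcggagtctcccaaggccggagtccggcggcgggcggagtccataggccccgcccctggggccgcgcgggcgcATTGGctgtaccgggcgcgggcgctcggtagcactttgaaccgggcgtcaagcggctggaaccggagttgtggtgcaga
Slc25a25: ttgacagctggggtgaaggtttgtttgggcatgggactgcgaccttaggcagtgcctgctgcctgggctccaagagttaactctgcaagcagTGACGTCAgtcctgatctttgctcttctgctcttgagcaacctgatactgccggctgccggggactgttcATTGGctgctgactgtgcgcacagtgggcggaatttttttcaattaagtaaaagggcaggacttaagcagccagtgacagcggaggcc

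In these windows the letters TGACGTCA, the cAMP response element, stood in the promoters of Slc25a33 and Slc25a25 and in no other tested member with a promoter; 1.59% of all 33469 RefSeq promoters hold them. CACGTG, an E-box, stood in Slc25a33 and Slc25a48 among tested members (5.59% of all promoters). CCAAT stood in 15 of 25 tested members (34% of all). The other 6 motifs were searched on both strands as well. TGATGNAAN, the C/EBP-ATF element (3.38% of all), TCACNCCAC, a sterol element (0.974%), and the NRF1 site (0.762%), were in 0 of the 25. TGACG, which lies within TGACGTCA, was in 9 (18.2% of all), CCGGAAG, an ETS site, in 5 (7.27%), and TGACNNNGC, an antioxidant element, in 2 (10.1%). A match is a description of letters and not a binding site.

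Values are TPM, which are scaled to transcript length, so levels of different genes can be set side by side. Log2 fold changes compare group means of log2(TPM + 1), a scale that understates changes of genes near or below 1 TPM. Adjusted p-values come from limma over all 12314 tested genes, and a change is called at an adjusted p under 0.05. TPM hold no record of read numbers, so the depth of the libraries is unknown. Library totals were 946400.5 to 981389.8 TPM. Ribosomal protein genes held 32.9 to 36.3% of all TPM in GD libraries, 33.7 to 36.8% at 100 µM, 31.7 to 33.4% at 200 µM and 17.3 to 17.8% in control libraries. A larger share for these genes lowers the TPM of all others, but how far it accounts for the shift given next was not tested. With deprivation the typical tested gene had a log2 fold change of -0.65 (median, GD over control). A second scaling by median of ratios, which divides each library by 1 factor so that the typical gene does not change, is therefore set beside the values in many places below. Levels, orders and overlaps of groups are those of TPM as deposited unless that scaling is named. Of 12 cardiac muscle markers 3 passed the expression filter, with Myl7 and Ryr2 listed at 0 throughout, so the labelled identity as myocardial cells had few defining markers behind it. Of 9 markers of skeletal myoblasts and muscle 6 passed, of 6 fibroblast markers 3 (5 were analysed), of 4 leukocyte markers 2 and of 4 endothelial markers 0. The cardiac markers summed to 23.1 to 29.1 TPM in GD, 19.5 to 32.8 at 100 µM, 32.4 to 66.3 at 200 µM and 144 to 167 in control libraries, and the skeletal ones to 28.6 to 31.7, 22.0 to 28.7, 31.6 to 40.8 and 265 to 273 TPM in the same order. Fibroblast markers summed to 463 to 834, 539 to 1000.05, 1499 to 1813 and 8510 to 9638 TPM, and leukocyte markers to 4.33 to 7.12, 5.83 to 7.31, 12.7 to 16.2 and 34.1 to 36.9 TPM. Endothelial markers summed to at most 0.09, 0.04, 0.05 and 0.29 TPM. The cardiac, fibroblast and leukocyte sums each came mostly from 1 gene. These were Tnnt2, Col1a1 and Cd14, with means of 142, 8964 and 34.1 TPM in control. Not all markers followed their sums, as Postn averaged 215 TPM at 200 µM against 185 in control, and Dcn and Cd68 were also higher at 200 µM. The part of these markers in the results below was not tested.

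As a family the carriers made up 0.194% ± 0.004 of all TPM in GD cells, 0.189% ± 0.005 at 100 µM, 0.225% ± 0.004 at 200 µM and 0.237% ± 0.007 in control cells (SD, n = 3 each). Their sum was 1823 to 1901 TPM in GD libraries, 1810 to 1865 at 100 µM, 2138 to 2235 at 200 µM and 2236 to 2307 in control libraries. In TPM as deposited all 200 µM libraries thus lay above all GD and 100 µM libraries and just below control. After median-of-ratios scaling, applied to the sums after the data were seen, the order changed. The sums were then 2060 to 2462 in GD, 2080 to 2221 at 100 µM, 2176 to 2303 at 200 µM and 1579 to 1593 in control, so that control was lowest and the 3 deprived groups overlapped. Slc25a4, Slc25a3 and Slc25a5 alone gave 72.2% ± 1.3 of the sum in GD, 69.9% ± 0.99 at 100 µM, 74.3% ± 0.81 at 200 µM and 67.2% ± 1.1 in control. The other 44 members together held 483 to 549 TPM in GD libraries, 524 to 570 at 100 µM, 547 to 571 at 200 µM and 730 to 767 in control. That order turned as well after median-of-ratios scaling, to 599 to 652 in GD, 642 to 644 at 100 µM, 577 to 588 at 200 µM and 499.6 to 536.3 in control. In bulk RNA, fewer cells of a kind and less RNA per cell cannot be told apart.

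**Figure D1:**
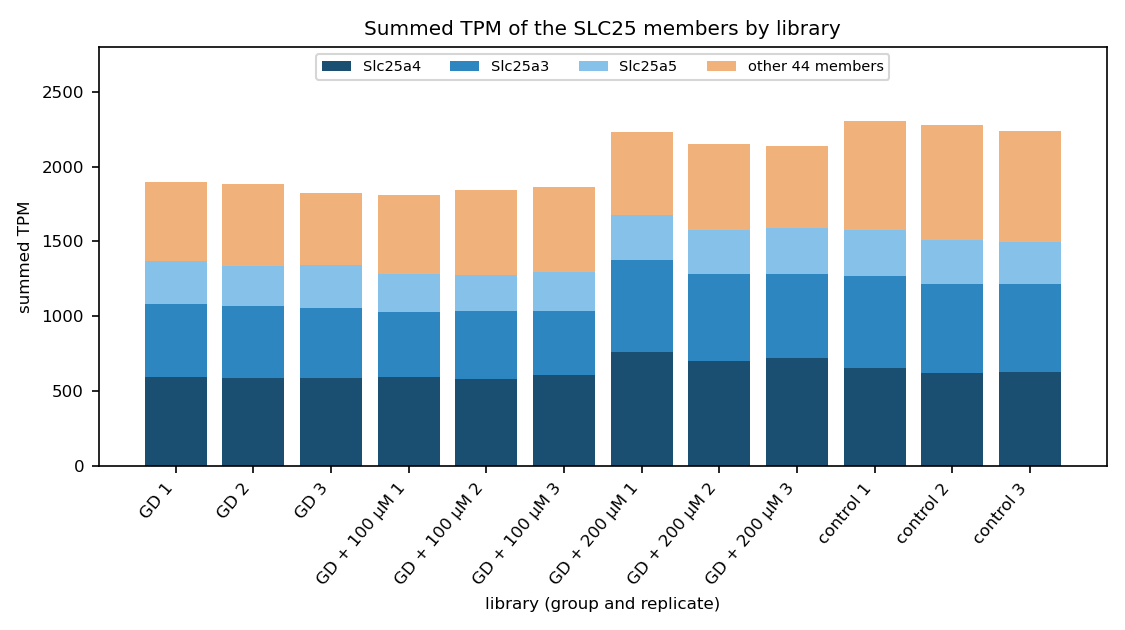
Summed TPM of the SLC25 members in each of the 12 libraries, with Slc25a4, Slc25a3, Slc25a5 and the other 44 members stacked. The 200 µM libraries reach 2138 to 2235 TPM, above the GD libraries at 1823 to 1901 and below control at 2236 to 2307, whereas after median-of-ratios scaling, not drawn, control is lowest at 1579 to 1593.

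Deprivation moved members both ways. Of the 32 tested, 7 rose and 17 fell, against 14% of all tested genes called higher and 67.6% called lower. The median log2 fold change of the members was -0.40 and that of all genes -0.65, and 22 members lay above the median gene. Median-of-ratios scaling turned this to 18 members up and 9 down, beside 38% and 38.7% of all genes. Of the members, 7 were higher under both scalings (among them Slc25a17, Slc25a33, Slc25a36, Slc25a37, Slc25a38 and Slc25a44) and 9 lower under both (Slc25a1, Slc25a10, Slc25a11, Slc25a12, Slc25a13, Slc25a16, Slc25a29, Slc25a35 and Slc25a48). Among these 9, Slc25a29 and Slc25a48 passed the expression filter through the control libraries alone, so they were tested only because control was high. Slc25a3, Slc25a20 and Slc25a28 were called in opposite directions. The share of all genes called under both scalings was not computed, so these counts have no background beside them.

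At 100 µM of empagliflozin fewer members were called against GD than were called on deprivation. Of the 32, 3 rose and 5 fell, against 7.51% of all genes called higher and 5.46% called lower. Median-of-ratios scaling called 3 up and 7 down, beside 8.1% and 10.4%. The number of falls hung on single libraries, with 2 called without GD replicate 1, without GD replicate 2, without 100 µM replicate 1 and without 100 µM replicate 2. Without 100 µM replicate 3, control replicates 2 or 3, or 200 µM replicates 1 or 3, 3 were called, and without GD replicate 3, 8. With replicate number as an added block 3 fell.

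At 200 µM, 10 members rose against GD and 8 fell, against 32% and 11.4% of all tested genes. By median of ratios 8 were up and 12 down, beside 22.7% and 24%. Between the doses, 9 members were higher at 200 µM than at 100 µM and 4 lower, against 25.7% and 8.06% of all genes. By median of ratios that split turned to 4 up and 9 down, beside 18.6% and 18.5%, and without GD replicate 3 the lower count was 7. The comparisons of each dose with GD and of GD with control share the 3 GD libraries, so their values are set side by side below without a count of reversals.

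**Figure D2:**
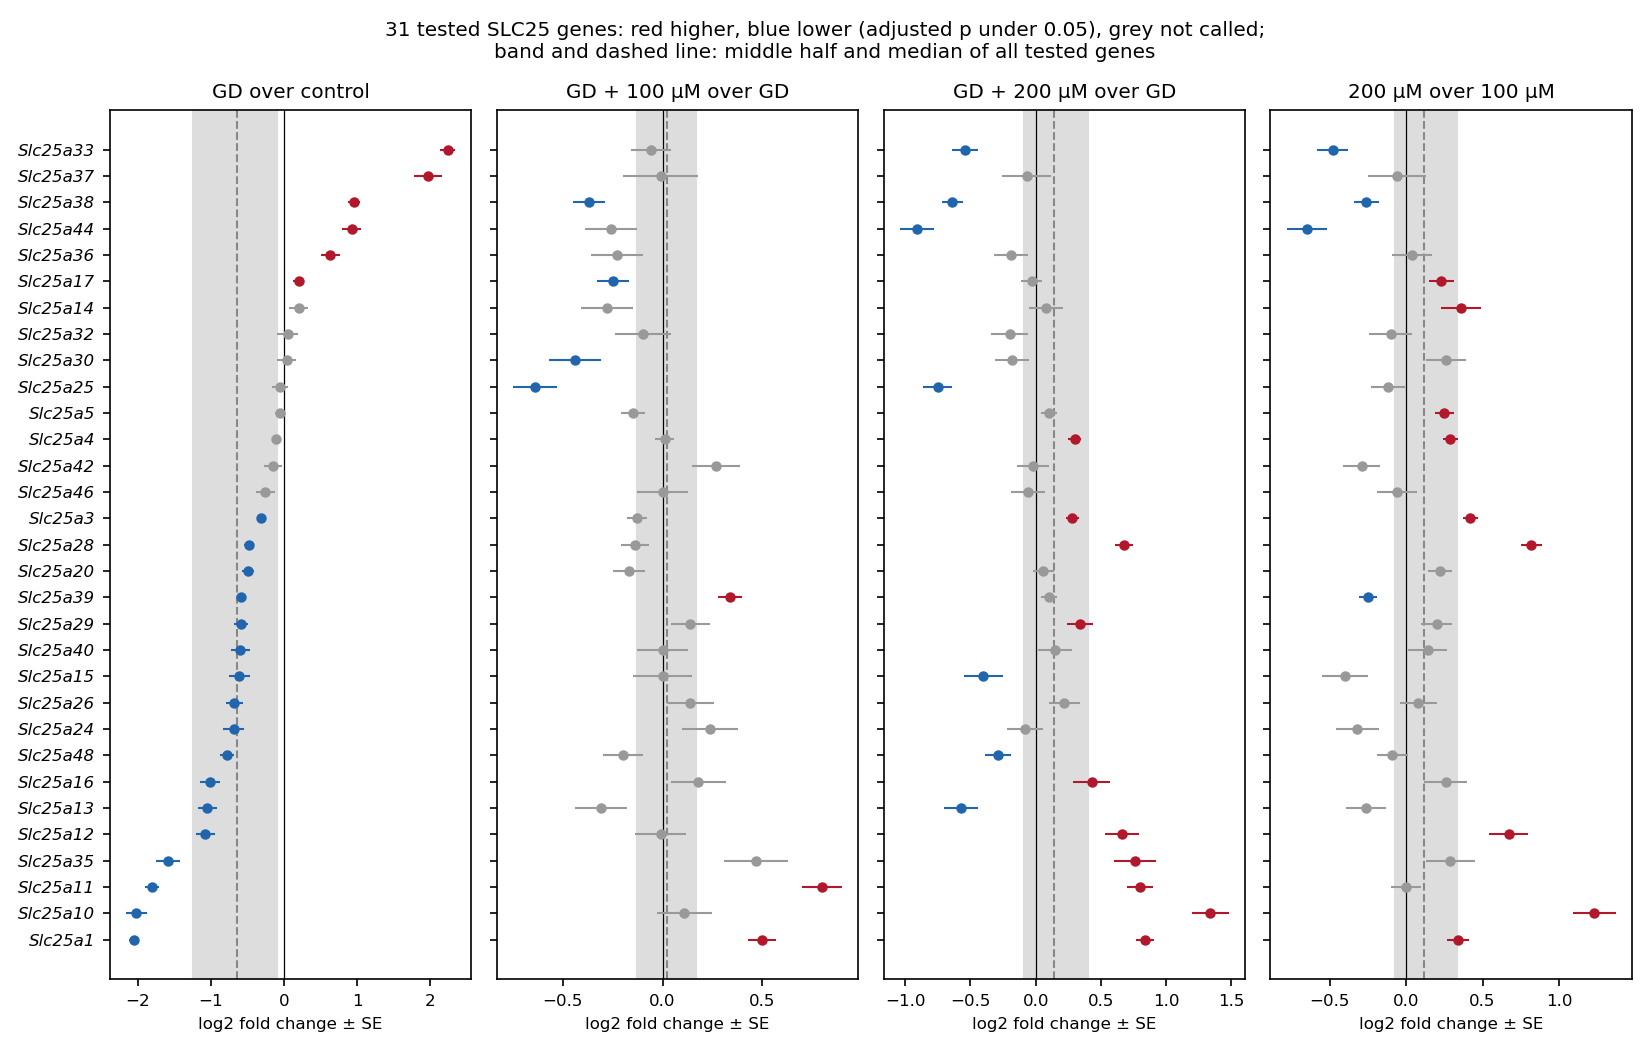
Log2 fold changes with SE of 31 tested SLC25 genes in 4 comparisons, in 1 gene order fixed by GD over control; the scales of the x axes differ. Slc25a33 (2.24) and Slc25a1 (-2.05) end the first panel, and the grey band and dashed line show the middle of the distribution of all tested genes, whose median is -0.65 there.

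The carriers of adenine nucleotides and phosphate, which supply ATP synthase and export its product, included the 3 most abundant members. Of the 5 tested, 0 rose and 2 fell on deprivation, beside 14% and 67.6% of all genes. Median-of-ratios scaling put 4 up and 0 down, beside 38% and 38.7%. Slc25a4, which encodes the ADP/ATP translocase of heart and muscle, had 593, 589 and 585 TPM in GD libraries and 592, 582 and 609 TPM at 100 µM. It had 762, 701 and 721 TPM at 200 µM and 655, 621 and 626 TPM in control libraries. The 200 µM libraries stood above all 9 others. The change on deprivation did not pass (-0.11, SE 0.05, adjusted p = 0.0503), and 200 µM was higher than GD (0.30, SE 0.05, adjusted p = 0.00019) and than 100 µM (0.29, adjusted p = 0.000434). After median-of-ratios scaling the 2 dose differences were 0.11 (adjusted p = 0.272) and 0.13 (adjusted p = 0.231), and the deprivation value became 0.66 (adjusted p = 9.21e-06).

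Slc25a3, the phosphate carrier, had 486, 482 and 473 TPM in GD, 440, 452 and 424 TPM at 100 µM, 612, 581 and 565 TPM at 200 µM and 617, 593 and 593 TPM in control. Its 200 µM and control libraries overlapped, and both lay above GD and 100 µM. The contrast of GD with control was -0.32 (SE 0.05, adjusted p = 2.94e-05) in TPM as deposited but 0.44 (adjusted p = 0.000174) after median-of-ratios scaling. Slc25a3 was higher at 200 µM than at 100 µM (0.42, SE 0.05, adjusted p = 3.41e-05) under both scalings (0.26, adjusted p = 0.0195), while its difference from GD (0.28, adjusted p = 0.00037) was 0.09 (adjusted p = 0.337) after that scaling.

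Slc25a5, the ADP/ATP translocase of dividing cells, had 292, 267 and 282 TPM in GD, 254, 240 and 265 TPM at 100 µM, 302, 296 and 305 TPM at 200 µM and 305, 297 and 275 TPM in control. Its deprivation change did not pass (-0.06, SE 0.06, adjusted p = 0.348; 0.70 with adjusted p = 1.39e-05 after median-of-ratios scaling). The difference between 200 and 100 µM did (0.25, SE 0.06, adjusted p = 0.00472), but not after median-of-ratios scaling (0.09, adjusted p = 0.463). Slc25a4 stood at 2.10 ± 0.09 times Slc25a5 in GD, 2.35 ± 0.07 at 100 µM, 2.42 ± 0.09 at 200 µM and 2.17 ± 0.10 in control (SD, n = 3 each). Reads of such closely related genes and of their copies elsewhere in the genome can be shared out in ways that the deposited values do not show.

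Slc25a25 and Slc25a24 encode calcium-regulated carriers that exchange ATP-Mg for phosphate and so set the adenine nucleotide pool of the matrix. Slc25a25 had 13.2, 15.2 and 12.8 TPM in GD, 7.74, 8.32 and 9.46 TPM at 100 µM, 6.66, 8.72 and 7.98 TPM at 200 µM and 14.6, 14.8 and 13.3 TPM in control. In TPM as deposited GD and control overlapped, and every library with drug lay below every library without it. After median-of-ratios scaling GD lay above control, and the 100 µM libraries overlapped control. The fall against GD was 0.64 on the log2 scale at 100 µM (-0.64, SE 0.11, adjusted p = 0.00341) and 0.75 at 200 µM (-0.75, SE 0.11, adjusted p = 0.000169), and 1.22% and 2.51% of all genes had a lower value. Deprivation itself gave -0.05 (adjusted p = 0.688), or 0.66 (adjusted p = 4.35e-05) after median-of-ratios scaling, and the doses did not differ by the test (-0.12, SE 0.11, adjusted p = 0.462; -0.26 with adjusted p = 0.0484 after that scaling). Its promoter, above, is one of a pair that hold TGACGTCA, the other being that of Slc25a33. Slc25a24 fell on deprivation to 8.56 ± 1.53 TPM in GD, against 14.4 ± 1.62 TPM in control (-0.69, SE 0.14, adjusted p = 0.000399), a change like that of the typical gene, being 0.00 after median-of-ratios scaling. Between 200 and 100 µM it gave -0.32 (adjusted p = 0.092), or -0.47 (adjusted p = 0.00363) after that scaling.

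**Figure D3:**
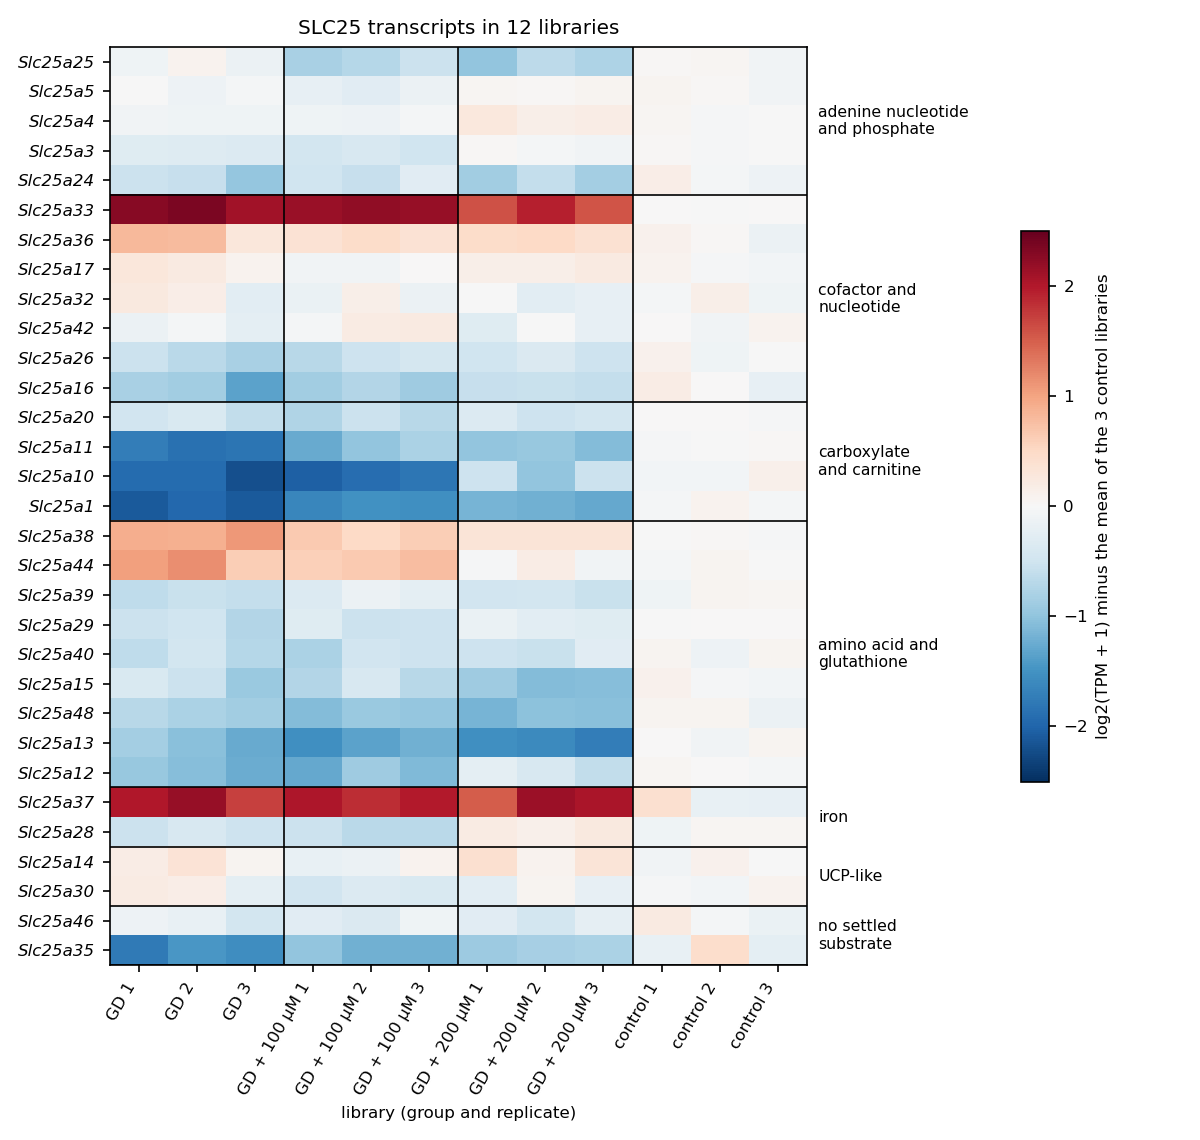
Log2(TPM + 1) of 31 tested SLC25 genes in each library minus the mean of the 3 control libraries, with genes grouped by the role of the carrier. Slc25a33 and Slc25a37 are the darkest red rows in all 9 deprived libraries, and the carboxylate carriers Slc25a1, Slc25a10 and Slc25a11 the darkest blue block in GD.

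Among carriers of nucleotides and cofactors, 4 of 8 tested rose on deprivation and 2 fell, beside 14% and 67.6% of all genes. By median of ratios 6 were up and 1 down, beside 38% and 38.7%. Slc25a33, a pyrimidine nucleotide carrier linked in human cells to growth signalling and mitochondrial DNA upkeep, had 56.6, 59.8 and 50.5 TPM in GD and 52.1, 54.5 and 53.2 TPM at 100 µM. It had 35.0, 44.8 and 34.5 TPM at 200 µM and 10.97, 10.84 and 11.02 TPM in control. No group overlapped control, and 200 µM lay below both other deprived groups. The rise on deprivation was 2.24 (SE 0.10, adjusted p = 2.81e-10), a ratio of mean TPM of 5.08, at percentile 99.5 of all genes. Slc25a33 fell at 200 µM against GD (-0.54, SE 0.10, adjusted p = 0.000601) and against 100 µM (-0.48, SE 0.10, adjusted p = 0.00203), whereas 100 µM against GD gave -0.06 (SE 0.10, adjusted p = 0.753). Its relative Slc25a36, the other pyrimidine carrier, rose less on deprivation, to 14.2 ± 2.89 TPM in GD, against 8.76 ± 0.91 TPM in control (0.63, SE 0.13, adjusted p = 0.000583). At 200 µM against GD it gave -0.19 (adjusted p = 0.268), or -0.37 (adjusted p = 0.00369) after median-of-ratios scaling. Slc25a33 stood at 3.99 ± 0.58 times Slc25a36 in GD, 4.50 ± 0.11 at 100 µM, 3.11 ± 0.36 at 200 µM and 1.26 ± 0.14 in control.

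Slc25a17, a peroxisomal carrier of coenzyme A and related cofactors, was slightly higher in GD, at 38.8 ± 2.87 TPM against 33.7 ± 2.10 TPM in control, with overlapping groups (0.20, SE 0.08, adjusted p = 0.0285). It fell at 100 µM to 32.3 ± 1.5 TPM (-0.25, SE 0.08, adjusted p = 0.0436). At 200 µM it gave -0.03 (adjusted p = 0.806) against GD and 0.23 (adjusted p = 0.0334) against 100 µM, or -0.21 (adjusted p = 0.0224) and 0.07 (adjusted p = 0.441) after median-of-ratios scaling. Slc25a16, associated with coenzyme A transport, fell on deprivation to 3.65 ± 0.88 TPM in GD, against 8.29 ± 1.21 TPM in control (-1.01, SE 0.14, adjusted p = 2.12e-05). At 200 µM it rose to 5.20 ± 0.08 TPM (0.43, SE 0.14, adjusted p = 0.0266). Slc25a26, the S-adenosylmethionine carrier, fell with the typical gene (-0.68, SE 0.12, adjusted p = 0.000114; -0.04 after median-of-ratios scaling), and Slc25a32, a folate and FAD carrier (0.05, adjusted p = 0.78), and Slc25a42, the mitochondrial coenzyme A carrier (-0.15, adjusted p = 0.257), did not pass. After that scaling they were higher, by 0.72 and 0.40. That scaling also made Slc25a32 lower at 200 µM than in GD (-0.38, adjusted p = 0.0142, against -0.20, adjusted p = 0.274, as deposited) and Slc25a42 lower at 200 than at 100 µM (-0.42, adjusted p = 0.00441, against -0.29, adjusted p = 0.075).

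The carboxylate carriers held the 3 lowest log2(TPM + 1) fold changes of the family on deprivation, although by ratio of mean TPM Slc25a35 was lowest, at 0.153. All 4 tested members of the carboxylate and carnitine group fell, beside 67.6% of all genes, with a median of -1.91. After median-of-ratios scaling 3 of them were lower and 1 higher, beside 38.7% and 38% of all genes. Slc25a1 encodes the citrate carrier, which exports citrate as the source of cytosolic acetyl-CoA for lipid synthesis. It had 34.2, 37.6 and 34.3 TPM in GD, 47.9, 51.6 and 51.5 TPM at 100 µM, 66.5, 64.7 and 61.3 TPM at 200 µM and 145, 160 and 145 TPM in control. The 4 groups did not overlap and were ordered GD, 100 µM, 200 µM and control. The fall on deprivation was 2.05 on the log2 scale (-2.05, SE 0.07, adjusted p = 3.24e-11). Against GD, Slc25a1 rose by 0.50 (SE 0.07, adjusted p = 0.000728) at 100 µM and 0.84 (SE 0.07, adjusted p = 1.03e-06) at 200 µM. The doses differed by 0.34 (SE 0.07, adjusted p = 0.00171), or 0.19 (adjusted p = 0.0512) after median-of-ratios scaling.

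Slc25a10, the dicarboxylate carrier, exchanges malate and succinate for phosphate. It had 2.75, 2.75 and 2.09 TPM in GD, 2.47, 2.82 and 3.10 TPM at 100 µM, 8.99, 6.22 and 8.80 TPM at 200 µM and 12.6, 12.6 and 14.7 TPM in control. In TPM as deposited GD and 100 µM overlapped, and 200 µM lay between them and control. After median-of-ratios scaling 200 µM and control overlapped. The fall on deprivation was -2.02 (SE 0.14, adjusted p = 2.22e-08). At 100 µM the difference from GD was 0.11 (SE 0.14, adjusted p = 0.683). At 200 µM Slc25a10 rose against GD (1.34, SE 0.14, adjusted p = 1.01e-05) and against 100 µM (1.23, SE 0.14, adjusted p = 3.58e-05), the largest change of any tested member between the doses and at percentile 98.1 of all genes.

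Slc25a11 encodes the oxoglutarate-malate carrier of the malate-aspartate shuttle. It had 21.4, 19.4 and 19.9 TPM in GD, 30.1, 36.4 and 41.9 TPM at 100 µM, 36.3, 37.6 and 33.9 TPM at 200 µM and 72.01, 73.1 and 74.9 TPM in control. Both drug groups overlapped each other and lay between GD and control. Slc25a11 fell on deprivation (-1.81, SE 0.10, adjusted p = 2.26e-09) and rose by 0.80 against GD at 100 µM (SE 0.10, adjusted p = 0.000508) and by 0.80 at 200 µM (SE 0.10, adjusted p = 3.72e-05). The difference between the doses was 0.00 (SE 0.10, adjusted p = 0.989). The gene overlaps Gp1ba in RefSeq. Slc25a20, the carnitine-acylcarnitine carrier that feeds fatty acid oxidation, was at 36.6 ± 3.26 TPM in GD, 32.5 ± 2.72 at 100 µM, 38.0 ± 2.45 at 200 µM and 51.7 ± 0.70 in control. Its contrast of GD with control was -0.49 (SE 0.08, adjusted p = 0.000102) as deposited and 0.26 (adjusted p = 0.00296) after median-of-ratios scaling, and neither dose differed from GD by the test.

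**Figure D4:**
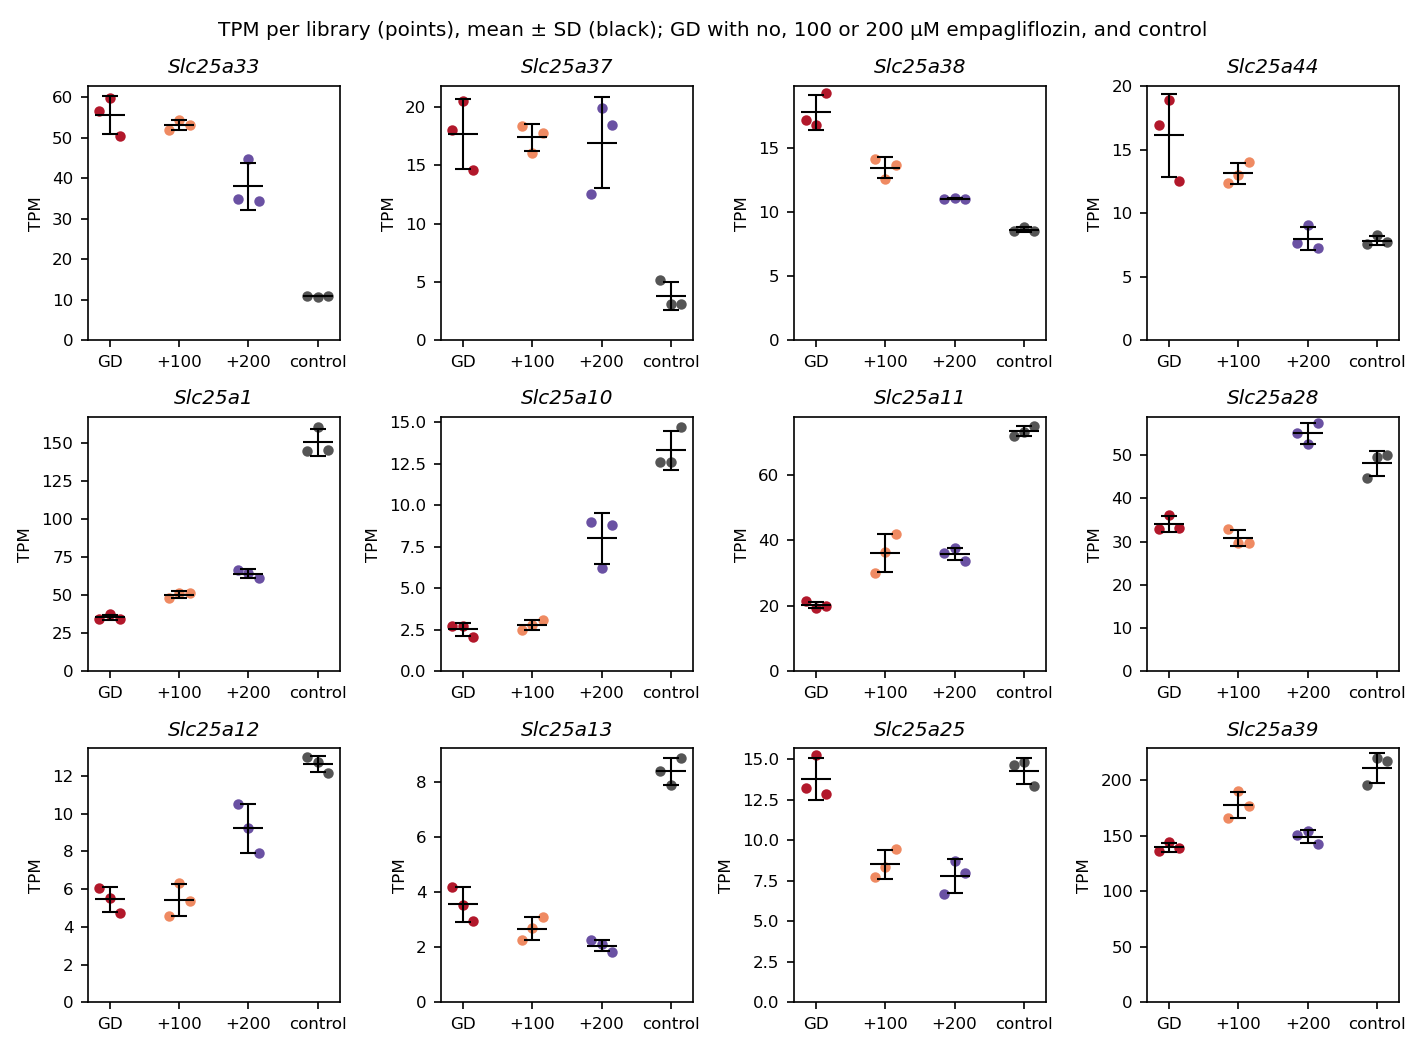
TPM of 12 SLC25 genes in each library (points) with mean and SD in black, for GD cells with no drug, 100 µM or 200 µM and for control cells. Slc25a1 averages 35.4 TPM in GD, 50.3 TPM at 100 µM, 64.2 TPM at 200 µM and 150.1 TPM in control, Slc25a10 averages 2.53, 2.80, 8.003 and 13.3 TPM in that order, and Slc25a25 is low in both drug groups.

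On the list of amino acid and glutathione carriers, which also holds Slc25a48, 2 of the 9 tested rose and 7 fell on deprivation, beside 14% and 67.6% of all genes. By median of ratios 2 were up and 4 down, beside 38% and 38.7%. The risers were Slc25a38 and Slc25a44. Slc25a38, a glycine carrier needed for haem synthesis, had 17.2, 16.8 and 19.3 TPM in GD, 14.1, 12.6 and 13.7 TPM at 100 µM, 11, 11.09 and 11.01 TPM at 200 µM and 8.53, 8.86 and 8.49 TPM in control. The 4 groups did not overlap and stepped down in that order. It rose on deprivation by 0.96 (SE 0.08, adjusted p = 1.91e-07) and fell against GD at 100 µM (-0.37, SE 0.08, adjusted p = 0.0115) and 200 µM (-0.64, SE 0.08, adjusted p = 5.75e-05). The call at 100 µM was lost when the compared groups were fitted alone (adjusted p = 0.0783). The difference between the doses (-0.26, SE 0.08, adjusted p = 0.0279) was lost without any 1 of the 200 µM replicates or without 100 µM replicate 1 or 3, with adjusted p of 0.0599 to 0.102.

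Slc25a44, a carrier of branched-chain amino acids in brown fat of mice, had 16.9, 18.9 and 12.5 TPM in GD, 12.4, 13.0 and 14.04 TPM at 100 µM, 7.68, 9.05 and 7.30 TPM at 200 µM and 7.55, 8.26 and 7.76 TPM in control. In TPM as deposited the 200 µM and control libraries overlapped, and both lay below GD and 100 µM. After median-of-ratios scaling the 200 µM libraries lay between control and the other deprived groups. It rose on deprivation by 0.93 (SE 0.13, adjusted p = 2.02e-05). At 200 µM it fell by 0.91 against GD (-0.91, SE 0.13, adjusted p = 0.000123) and by 0.65 against 100 µM (-0.65, SE 0.13, adjusted p = 0.00214), the lowest values among tested members in both comparisons. At 100 µM the difference from GD did not pass (-0.26, SE 0.13, adjusted p = 0.232; -0.29 with adjusted p = 0.037 after median-of-ratios scaling).

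Slc25a12 and Slc25a13 encode the calcium-regulated aspartate-glutamate carriers aralar and citrin, which complete the malate-aspartate shuttle. Slc25a12 had 6.08, 5.54 and 4.75 TPM in GD, 4.59, 6.31 and 5.37 TPM at 100 µM, 10.5, 9.26 and 7.93 TPM at 200 µM and 13.0, 12.7 and 12.2 TPM in control. Slc25a13 had 4.2, 3.54 and 2.94 TPM in GD, 2.26, 2.69 and 3.09 TPM at 100 µM, 2.25, 2.11 and 1.83 TPM at 200 µM and 8.41, 7.88 and 8.87 TPM in control. The genes went down together on deprivation and apart with 200 µM of drug. On deprivation Slc25a12 fell (-1.08, SE 0.13, adjusted p = 3.76e-06) and so did Slc25a13 (-1.05, SE 0.13, adjusted p = 4.59e-06). At 200 µM against GD, Slc25a12 rose (0.66, SE 0.13, adjusted p = 0.00109) while Slc25a13 fell (-0.57, SE 0.13, adjusted p = 0.00294). At 100 µM neither passed (-0.01, adjusted p = 0.97, and -0.31, adjusted p = 0.138; -0.34 with adjusted p = 0.0332 for Slc25a13 after median-of-ratios scaling). Between 200 and 100 µM Slc25a12 was higher (0.67, SE 0.13, adjusted p = 0.00147) and Slc25a13 gave -0.26 (adjusted p = 0.134), or -0.38 (adjusted p = 0.00965) after that scaling.

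The ratio of Slc25a13 to Slc25a12 within a library, which no scaling of libraries alters, was 0.65 ± 0.04 in GD, 0.50 ± 0.07 at 100 µM, 0.22 ± 0.01 at 200 µM and 0.67 ± 0.06 in control (SD, n = 3 each). The 200 µM libraries lay apart from all others. The two-sided exact permutation p was 0.6 for GD against control and 0.1 for the other 3 comparisons, which is the smallest that 3 against 3 libraries allow. Adjusted over the 8 such ratio tests made, by Benjamini-Hochberg, the p of 0.1 became 0.133. The tested pairs were picked after their values were seen, so these p-values only describe the separation and lend it no support.

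Slc25a39 and Slc25a40 encode carriers that bring glutathione into mitochondria. Slc25a39 had 136, 144 and 139 TPM in GD, 166, 190 and 177 TPM at 100 µM, 151, 154 and 143 TPM at 200 µM and 196, 221 and 217 TPM in control. In TPM as deposited GD and 200 µM overlapped, with 100 µM above them and below control. After median-of-ratios scaling the 100 µM libraries lay above control instead. Deprivation gave -0.59 (SE 0.06, adjusted p = 1.78e-06) as deposited and 0.17 (adjusted p = 0.0709) after median-of-ratios scaling. It rose at 100 µM against GD (0.34, SE 0.06, adjusted p = 0.00464), did not pass at 200 µM (0.10, SE 0.06, adjusted p = 0.259), and was lower at 200 than at 100 µM (-0.25, SE 0.06, adjusted p = 0.0102). Slc25a40 was far less abundant, at 2.88 ± 0.34 TPM in GD, 2.90 ± 0.43 at 100 µM, 3.29 ± 0.46 at 200 µM and 4.86 ± 0.46 in control. It fell on deprivation with the typical gene (-0.60, SE 0.13, adjusted p = 0.000625; 0.00 after that scaling).

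Slc25a15, the ornithine carrier of the urea cycle, fell on deprivation to 3.86 ± 0.91 TPM in GD, against 6.33 ± 0.50 TPM in control (-0.61, SE 0.15, adjusted p = 0.00166; 0.02 after median-of-ratios scaling), and at 200 µM to 2.63 ± 0.26 TPM with overlapping groups (-0.40, SE 0.15, adjusted p = 0.0389). Between 200 and 100 µM it gave -0.40 (adjusted p = 0.0502), or -0.53 (adjusted p = 0.00298) after that scaling. Slc25a29, a carrier of basic amino acids, was below 1 TPM in all deprived groups, at 0.36 ± 0.11 TPM in GD, 0.50 ± 0.14 at 100 µM, 0.72 ± 0.09 at 200 µM and 1.04 ± 0.02 in control. Only in control libraries did it reach 1 TPM, so it passed the expression filter through that group alone. Its lower value in GD (-0.59, SE 0.10, adjusted p = 0.000109) is therefore not independent of the filter. At 200 µM it was higher than in GD (0.34, SE 0.10, adjusted p = 0.0151). Slc25a48 was as low, at 0.59 ± 0.09 TPM in GD, 0.38 ± 0.08 at 100 µM, 0.30 ± 0.07 at 200 µM and 1.74 ± 0.22 in control. Slc25a48 too passed the filter through control alone, so its lower value in GD (-0.78, SE 0.10, adjusted p = 6.24e-06) is bound to the filter in the same way. At 200 µM it was lower than in GD (-0.29, SE 0.10, adjusted p = 0.0291).

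The iron carriers mitoferrin 1 and mitoferrin 2, which feed haem and iron-sulphur cluster synthesis, are encoded by Slc25a37 and Slc25a28. Slc25a37 had 18.0, 20.5 and 14.6 TPM in GD, 18.3, 16.1 and 17.7 TPM at 100 µM, 12.5, 19.9 and 18.4 TPM at 200 µM and 5.21, 3.14 and 3.12 TPM in control. The 3 deprived groups overlapped and all lay above control. The rise on deprivation was 1.97 (SE 0.19, adjusted p = 4.96e-07), a ratio of mean TPM of 4.62, and neither 100 µM (-0.01, SE 0.19, adjusted p = 0.976) nor 200 µM (-0.07, SE 0.19, adjusted p = 0.79) differed from GD by the test.

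Slc25a28 had 33.0, 36.3 and 33.1 TPM in GD, 32.9, 29.6 and 29.8 TPM at 100 µM, 55.2, 52.6 and 57.3 TPM at 200 µM and 44.8, 49.5 and 50.05 TPM in control. Here the 200 µM libraries lay above every other library, control included. Slc25a28 rose at 200 µM against GD (0.68, SE 0.07, adjusted p = 1.26e-05) and against 100 µM (0.82, SE 0.07, adjusted p = 5.16e-06), and 100 µM against GD gave -0.14 (SE 0.07, adjusted p = 0.227). Its contrast of GD with control was -0.48 (SE 0.07, adjusted p = 3.76e-05) as deposited and 0.26 (adjusted p = 0.0235) after median-of-ratios scaling. The ratio of Slc25a37 to Slc25a28 was 0.52 ± 0.07 in GD, 0.57 ± 0.03 at 100 µM, 0.31 ± 0.08 at 200 µM and 0.081 ± 0.031 in control (SD, n = 3 each). Its exact permutation p was 0.1, the smallest possible, in every comparison but that of 100 µM with GD (0.5). This pair too was picked after its values were seen.

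**Figure D5:**
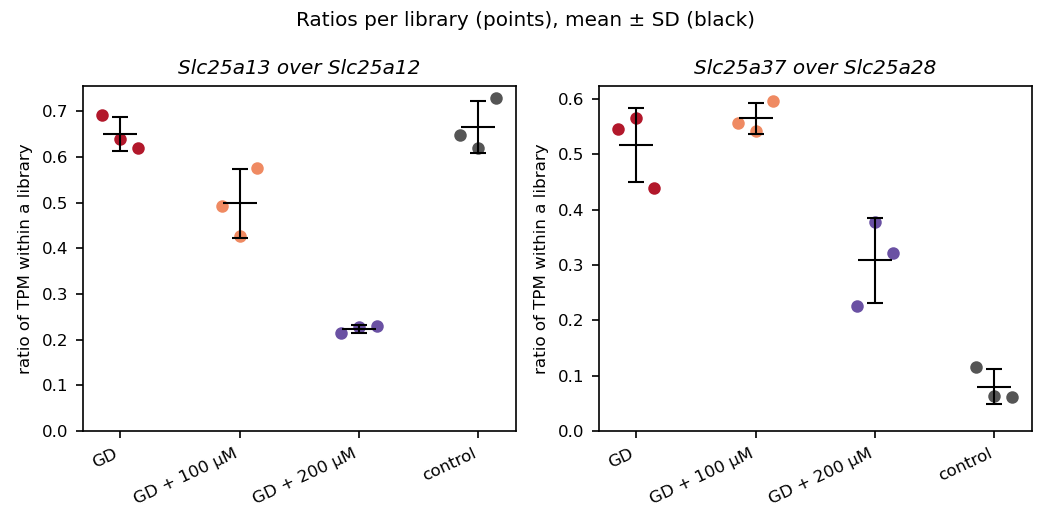
Ratio of TPM within each library (points; mean and SD in black) of Slc25a13 to Slc25a12 and of Slc25a37 to Slc25a28 in the 4 groups. The first ratio is lowest at 200 µM, 0.214 to 0.231, and the second is lowest in control, 0.0623 to 0.116.

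Of the members that resemble uncoupling proteins, Slc25a30 had 6.21, 5.98 and 4.24 TPM in GD, 3.5, 3.93 and 3.76 TPM at 100 µM, 4.22, 5.51 and 4.39 TPM at 200 µM and 5.14, 4.98 and 5.58 TPM in control. The 100 µM libraries were the lowest in TPM as deposited, and the control libraries after median-of-ratios scaling. The fall at 100 µM against GD passed narrowly (-0.44, SE 0.13, adjusted p = 0.0487). The call was lost without any 1 of the control, GD replicate 1 or 2, 100 µM or 200 µM replicate 1 or 3 libraries (adjusted p of 0.0568 to 0.171), with no expression filter (0.0973), with those groups fitted alone (0.162) and with replicate number as a block (0.0537). After median-of-ratios scaling Slc25a30 was also higher on deprivation (0.67, adjusted p = 4.29e-05, against 0.04, adjusted p = 0.781, as deposited) and lower at 200 µM than in GD (-0.34, adjusted p = 0.0133, against -0.18, adjusted p = 0.317). Slc25a14 did not pass on deprivation (0.20, SE 0.13, adjusted p = 0.159), nor at either dose against GD, and was 0.78 (adjusted p = 2.78e-05) on deprivation after median-of-ratios scaling. It was higher at 200 than at 100 µM, at 4.42 ± 0.62 against 3.23 ± 0.44 TPM with overlapping groups (0.36, SE 0.13, adjusted p = 0.0424; 0.23 with adjusted p = 0.109 after that scaling).

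Among members with no settled substrate, Slc25a35 had 0.41, 0.75 and 0.65 TPM in GD, 1.42, 1.11 and 1.11 TPM at 100 µM, 1.58, 1.73 and 1.78 TPM at 200 µM and 3.22, 5.55 and 3.06 TPM in control. The groups did not overlap in TPM as deposited, but the drug groups overlapped each other after median-of-ratios scaling. Slc25a35 fell on deprivation (-1.59, SE 0.16, adjusted p = 9.04e-07) and rose at 200 µM against GD (0.76, SE 0.16, adjusted p = 0.00234), while 100 µM gave 0.47 (SE 0.16, adjusted p = 0.0805). It overlaps Rangrf in RefSeq. Slc25a46, whose product sits in the outer membrane and bears on mitochondrial shape, did not pass in any of the 4 comparisons (-0.26, SE 0.13, adjusted p = 0.0817 on deprivation; 0.43 with adjusted p = 0.0027 after median-of-ratios scaling).

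The 15 members that were not tested were low throughout. Slc25a6, Slc25a21, Slc25a23, Slc25a31, Slc25a41 and Slc25a54 were listed at 0 in all 12 libraries. Slc25a2, Slc25a27, Slc25a34, Slc25a45, Slc25a47, Slc25a52 and Slc25a53 peaked between 0.03 TPM for Slc25a52 and 1.14 TPM for Slc25a45. The remaining pair stood out for uneven replicates. Slc25a43 had 2.87, 1.01 and 0.09 TPM in GD and at most 0.49 TPM in any other library. Slc25a18, a glutamate carrier, had 1.12, 0.17 and 1.70 TPM at 200 µM, 0.00 to 0.08 TPM in GD and at 100 µM, and 0.36 to 0.69 TPM in control.

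Genes around the carriers were read from lists of other mitochondrial genes. Of 12 tested genes for insertion of carriers into the inner membrane, 6 rose and 5 fell on deprivation, beside 14% and 67.6% of all genes, with a median of 0.07. Timm22, the insertion channel itself, fell to 9.95 ± 0.33 TPM in GD, against 26.4 ± 0.69 TPM in control (-1.32, SE 0.08, adjusted p = 8.77e-09), and rose at 200 µM to 16.7 ± 0.74 TPM (0.69, SE 0.08, adjusted p = 2.98e-05). The import pore gene Tomm40 fell too (-1.12, SE 0.09), while the chaperone gene Timm9, whose product escorts carriers across the intermembrane space, rose (0.86, SE 0.10). By median of ratios 8 of the 12 were up and 2 down, beside 38% and 38.7%. At 100 µM 5 of them rose against GD and 0 fell, beside 7.51% and 5.46% of all genes (4 and 0 by median of ratios, beside 8.1% and 10.4%), among them Timm8b (0.41, SE 0.06, adjusted p = 0.000661). At 200 µM the counts were 3 up and 1 down, beside 32% and 11.4% (1 and 6 by median of ratios, beside 22.7% and 24%). Between 200 and 100 µM 1 was up and 5 down, beside 25.7% and 8.06% (0 and 7 by median of ratios, beside 18.6% and 18.5%).

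Of 19 tested genes for other transporters and pores, 4 rose and 10 fell on deprivation, beside 14% and 67.6% of all genes (8 up and 6 down by median of ratios, beside 38% and 38.7%), with a median of -0.37. Sfxn3, a sideroflexin gene, fell (-1.53, SE 0.08), as did Mcu, the calcium uniporter pore (-1.50, SE 0.12), and Mpc1, a subunit of the pyruvate carrier, rose to 199 ± 11.4 TPM in GD, against 106 ± 2.67 TPM in control (0.90, SE 0.06, adjusted p = 6.6e-09). At 100 µM 2 rose and 1 fell, beside 7.51% and 5.46% of all genes (3 and 4 by median of ratios, beside 8.1% and 10.4%). At 200 µM 4 were up and 6 down, beside 32% and 11.4% (3 and 9 by median of ratios, beside 22.7% and 24%), with Mpc1 at -0.51 (SE 0.06, adjusted p = 1.36e-05) and Sfxn1, a mitochondrial serine transporter gene, at -1.15 (SE 0.15, adjusted p = 4.55e-05). Between 200 and 100 µM 3 were up and 4 down, beside 25.7% and 8.06% (1 and 6 by median of ratios, beside 18.6% and 18.5%). Of the family relatives under other symbols, 3 of 5 were tested. The uncoupling protein gene Ucp2 fell on deprivation to 3.64 ± 0.38 TPM in GD, against 38.2 ± 2.46 TPM in control (-3.08, SE 0.13, adjusted p = 2.56e-10), further than any tested SLC25 symbol. Mtch1 was also called lower on deprivation (-0.62, or 0.14 and not called after that scaling) and Mtch2 higher (0.17, SE 0.06, adjusted p = 0.0161). At 100 µM 0 of the 3 were called. At 200 µM Mtch2 fell (-0.23) and Mtch1 was higher (0.20, or 0.01 after that scaling), and between the doses Mtch2 was lower at 200 µM (-0.22).

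Of the 32 tested members, 20 overlap another gene in the RefSeq annotation, and the strand setting of the counting is not given in the sources used here. Reads from the 2 genes of such a pair may therefore not have been told apart where they overlap. Overlap was taken over whole gene spans, whatever the strand or exons, so not every such pair need share reads.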

How the data were processed

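RNA-seq of total RNA from 12 libraries of H9c2(2-1) cells was analysed from 1 deposited table with 1 TPM column per library, made by the authors. Per the submitters' processing notes HISAT2 and StringTie were used. Not given in the sources used here are tool versions, genome build, gene annotation and strandedness of counting. The unit was taken from the values, whose columns sum to 946400.5 to 981389.8. Groups and replicate numbers are from the sample titles.

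A gene was kept when 3 or more libraries reached 1 TPM (12314 genes). The fit used limma-trend (limma 3.58.1, R 4.3.3) on log2(TPM + 1), 1 mean per group, all 12 libraries in 1 model, two-sided, with Benjamini-Hochberg adjustment over all genes tested. The method was tested on simulated data. The comparisons were GD against control, each dose against GD, and 200 against 100 µM. Replicate correlation on the log2 scale was 0.990 to 0.994 within groups.

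Values per library are given for the 4 highest and 4 lowest called members of each comparison and the 3 most abundant; the others are summarised by role. Of the tested members, 1 is not reported here by name and is not drawn by gene, but is included in the counts and sums. Slc25a18 and Slc25a43 were named after their values were seen, as were the within-library ratios and the motifs searched. The members and lists were chosen with earlier results of these data known. Alternatives were median-of-ratios scaling, a pseudocount of 0.1, no filter, a filter of 5 TPM, limma without trend, the compared groups alone, replicate number as a block, and leaving out each library. Promoters are from RefSeq (GRCr8); gene symbols of the table were matched to it for overlaps.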

Additional observations from a re-analysis of the deposited data

How the results depend on the processing

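The counts of called members kept within 1.5 times of those reported with a pseudocount of 0.1, a filter of 5 TPM and limma without trend. Median-of-ratios scaling moved the counts for GD against control to 18 higher and 9 lower (7 and 17 as reported) and for 200 against 100 µM to 4 higher and 9 lower (9 and 4). Among members called lower in GD than in control as deposited, it turned Slc25a3 (0.44), Slc25a20 (0.26) and Slc25a28 (0.26) to called higher. It also turned Slc25a39 (0.17, adjusted p = 0.0709) and Slc25a15 (0.02, adjusted p = 0.873) positive, without a call, and brought Slc25a24 and Slc25a40 to 0.00. Slc25a4, Slc25a5, Slc25a25, Slc25a42 and Slc25a46, negative and not called as deposited, became positive and were called higher (0.40 to 0.70). The scaling by its construction brings the median gene near 0, where TPM as deposited put it at -0.65 for GD against control and at 0.12 for 200 against 100 µM. It also turned the order of the summed TPM, with control lowest at 1579 to 1593. Members lower at 100 µM than GD numbered 5, and 3 with no filter, 1 with the compared groups alone and 3 with the replicate block; the cause was not tested. Leaving out 1 library gave 6 to 7 members higher and 17 to 18 lower for GD against control, 3 to 4 and 2 to 8 for 100 µM against GD, 8 to 10 and 6 to 11 for 200 µM against GD, and 7 to 11 and 3 to 7 for 200 against 100 µM.

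The replicate block is an alternative because no label says that a number marks a shared culture. Deviations of same-numbered libraries from their group means correlated at -0.09 to 0.21 in 18 pairs, 3 of them above 0.1. For differently numbered libraries the range was -0.22 to 0.22 in 36 pairs, also with 3 above 0.1. With 3 libraries a group such deviations are tied to each other, so they cannot show whether same-numbered libraries shared a culture. Among members given per library, the block ended only the call of Slc25a30 at 100 µM (-0.44, adjusted p = 0.0537), and it moved no other count by over 1.5 times. Depth is unknown, so changes of members near 1 TPM carry an unmeasured counting error.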
